A study of Mus musculus with 12 samples.

Results

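The interferon-induced genes of the mouse heart were followed in 12 hearts of 2 genotypes and 2 ages. A list of 39 genes was taken. A probe in the scanner files was assigned to a gene by its RefSeq transcript, or else by the gene's symbol or an older synonym. This found 60 probes for 38 of the 39 genes among 41174 probes in all. The antiviral gene Xaf1 was not analysed here. A total of 52 of the 60 probes passed the filter on dim signals, and all 38 genes were among the 18258 genes tested.

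The hearts came from male C57BL/6 mice, 3 per group, and each array held the RNA of 1 mouse. The knockout mice, cardioGRMRdKO, carried floxed alleles of Nr3c1, the gene of the glucocorticoid receptor, and of Nr3c2, the gene of the mineralocorticoid receptor, together with a cardiomyocyte-specific αMHC-Cre. The dflox controls were littermates with the same floxed alleles and no Cre. Both genotypes were sampled at 1 and 2 months of age. All 4 groups therefore share the floxed alleles, and every knockout heart but no dflox heart carried Cre, so effects of Cre and of receptor loss cannot be told apart. Whole hearts also hold endothelial cells, fibroblasts and leukocytes, in which this Cre is not active.

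Interferons are secreted proteins made when cells sense viral or other nucleic acids. Type I interferons signal through the receptor chains Ifnar1 and Ifnar2 to the kinases Jak1 and Tyk2, which phosphorylate Stat2. Stat2 and Irf9 are parts of a complex that binds the interferon-stimulated response element (ISRE) in promoters. Interferon gamma signals through Ifngr1 and Ifngr2, and promoters of its target genes can hold gamma-activated sequences (GAS). Many cells, cardiac cells included, express interferon-induced genes at a low level without infection, and glucocorticoids are known to dampen inflammatory gene expression in many tissues.

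The response elements can be read in the promoters of the genes measured here. RefSeq promoters of build GRCm38.p6, from 250 bases before to 50 bases after the start of transcription, were at hand for 31 of the 39 genes. The ISRE core, GAAA followed by any 2 bases and a second GAAA, was searched on both strands and was found in 16 of the 31 promoters (51.6%), against 1079 of 27025 genes with a promoter in the table (3.99%). The letters TTCNNNGAA, a GAS core that reads the same on both strands, were found in 9 of the 31 (29%) and in 2582 of all 27025 genes (9.55%). The ISRE and GAS cores can overlap in their GAA letters, and a match is a description of the sequence, not a measured binding site. By role, the ISRE core was found in 4 of 5 promoters of GTPase genes, 2 of 3 of RNA sensor genes and 2 of 3 of IFIT genes. Its letters are not in the windows of the 3 antigen processing genes. Windows of 30 bases are shown for genes that the results below turn on, 5′ to 3′ on the strand of the gene, with the motif in capitals. Where the match lies on the opposite strand the capitals are its reverse complement, with TTTC at each end.
Stat2: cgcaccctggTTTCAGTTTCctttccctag
Isg15: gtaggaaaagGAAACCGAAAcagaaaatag
Ifit1: ccagtctcagTTTCAGTTTCtcactgctga
Cxcl10: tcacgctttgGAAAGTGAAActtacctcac
Gbp3: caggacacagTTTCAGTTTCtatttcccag
Irf1: aacagcctgatTTCCCCGAAatgatgaggc
Psmb8: gtcctccgctgTTCCCAGAAgatgcccccc
Igtp: aaactagccatTTCTAGGAActgaaactga
Tgtp1: aaactagccatTTCCAGGAAtcgaaactga

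The capitals mark an ISRE core in the first 5 windows and a GAS core in the other 4. The Igtp and Tgtp1 promoters also hold an ISRE core, starting at -34 and -77, which the windows printed here cut off. The Stat2 window lies at chr10:128270266-128270295, with its match starting at position -222 from the transcription start. The Isg15 window lies at chr4:156200871-156200900 (match at -72), the Ifit1 window at chr19:34640794-34640823 (-85) and the Cxcl10 window at chr5:92349083-92349112 (-213). The Gbp3 window is chr3:142559989-142560018, with its match at -45. Among the GAS windows, Irf1 is at chr11:53769913-53769942 (-90), Psmb8 at chr17:34198087-34198116 (-97), Igtp at chr11:58199500-58199529 (-45) and Tgtp1 at chr11:48992316-48992345 (-88). Igtp and Tgtp1 encode interferon-inducible GTPases on the same chromosome, and both windows open with the same flanking bases before the motif. Isg15 holds 3 overlapping matches to the ISRE core, at -78, -72 and -66. Ifit1 holds a further match at -104 and Gbp3 at -39.

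Levels are log2 intensities relative to the array's 75th percentile, so a level of 0 is that percentile, and levels of different probes are not compared. On each array 63.7% to 71.9% of the spots for transcripts exceeded background clearly by the scanner software's criterion, and 0 were saturated. Nr3c1 was lower in the knockout hearts at 2 months (log2 difference -1.10, SE 0.137, limma adjusted p = 0.00565), and at 1 month, with 1 heart per genotype lacking a usable spot, by -0.73 (adjusted p = 0.119). Nr3c2 was dim, and its difference of -0.46 at 2 months did not pass the test (adjusted p = 0.651). All 8 cardiomyocyte markers were measured, with a mean level of 6.37 to 7.06 over the hearts. The mean level of 13 airway epithelium markers ran from 0.73 to 1.98 in the dflox hearts at 1 month and from -4.13 to -2.27 in the knockout hearts of that age. At 2 months it ran from -3.98 to 2.47 in dflox and from -4.02 to 2.07 in knockout hearts, and its part in the results below was not tested beyond the fit given among the alternatives. At 1 month every dflox array lay at an outer place of its slide and every knockout array at an inner one, and there genotype and place on the slide cannot be told apart. At 2 months dflox replicates 2 and 3 and knockout replicate 3 lay at outer places, the other arrays at inner ones. The genotype comparison averaged over the ages is thus also unbalanced over place. With place as a term, the averaged calls of Parp9, Ryr2, Fcgr1, Klf9 and Arpp21 given below were all lost.

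In the genotype comparisons none of the 38 genes passed the test at either age. At 1 month limma called 0 of 38, where 0.98% of all genes were called, and the smallest adjusted p was 0.493. At 2 months it called 0 of 38 against 2.31% of all genes, with a smallest adjusted p of 0.211. At an unadjusted p under 0.05, 1 gene was higher (4.43% of all genes were) and 0 lower (4.97%) in knockout hearts at 1 month. At 2 months 2 were higher (5.48% of all genes) and 3 lower (10.1%). The median log2 difference of the 38 genes was 0.04 at 1 month, beside 0 over all genes, and 0.05 at 2 months, beside -0.10. At 1 month 20 of the 38 lay above 0, as did 49.7% of all genes, and at 2 months 21 of the 38, as did 37% of all genes. The precision bounds the size of a difference that could have been missed: the 95% interval lay within 1 log2 unit of 0, that is less than a 2-fold difference either way, for 36 of 38 genes at 1 month and 35 at 2 months. The exceptions were the dim genes Mx1 and Oas3 at both ages and Isg20 at 2 months.

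**Figure D1:**
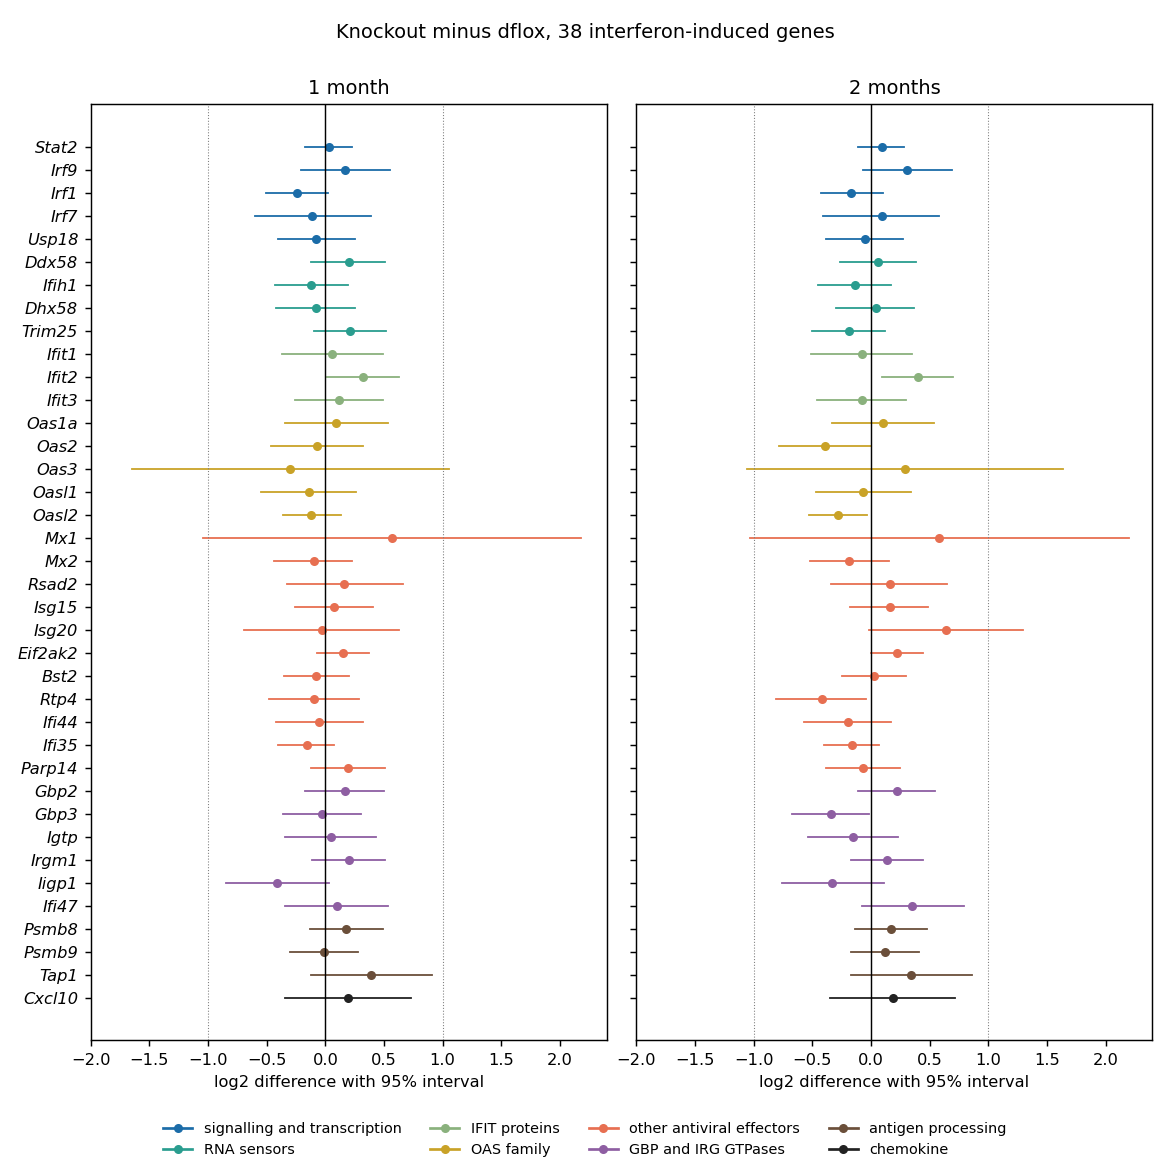
Log2 difference of knockout minus dflox hearts for each of the 38 genes at 1 month (left) and 2 months (right), n = 3 hearts per group. Points are differences and lines 95% intervals from limma, colours give the role, and dotted lines mark a 2-fold difference; all intervals but 1 at 1 month and 5 at 2 months include 0, and those of Mx1 and Oas3 are the widest.

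Averaged over both ages, 0 of 38 genes were called where 4.5% of all genes were, with 3 genes higher (7.28% of all genes) and 3 lower (10.3%) at an unadjusted p under 0.05. The change of the genotype difference from 1 to 2 months was called for 0 of 38 genes and for 0% of all genes, with 0 of the 38 and 3.53% of all genes at an unadjusted p under 0.05. In that comparison the smallest unadjusted values belonged to Trim25, Isg20, Gbp3, Rtp4 and Parp14. The averaged comparison uses the same hearts as those at single ages and is no separate evidence.

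Among genes of signal transduction and transcription, Irf1, a transcription factor induced strongly by interferon gamma, had levels of 3.16, 3.22 and 2.94 in dflox and 2.84, 2.87 and 2.87 in knockout hearts at 1 month. At 2 months the levels of Irf1 were 3.05, 3.34 and 2.96 in dflox and 3.03, 2.97 and 2.86 in knockout hearts. All 3 knockout hearts lay below the 3 dflox hearts at 1 month, and the groups overlapped at 2 months. The difference averaged over both ages was -0.20 (SE 0.0855, limma adjusted p = 0.244). It was -0.24 at 1 month and -0.17 at 2 months, where a second Irf1 probe gave -0.40 and 0.15. The other 4 genes of this role, Stat2, Irf9, Irf7 (the factor that amplifies type I interferon production) and Usp18 (a protease that removes Isg15 from proteins and restrains receptor signalling), had differences from -0.11 to 0.31 at the single ages, and none passed the test. Stat2 and Irf9 are described with the age comparison.

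The RNA sensors Ddx58 (RIG-I), Ifih1 (MDA5) and Dhx58 (LGP2) detect viral RNA in the cytoplasm, and Trim25 ubiquitinates RIG-I. Their genotype differences ran from -0.19 to 0.21 over both ages. Trim25 stood at 2.07, 1.97 and 2.11 in dflox and 1.97, 2.39 and 2.42 in knockout hearts at 1 month. At 2 months Trim25 levels were 2.04, 1.91 and 2.24 in dflox and 1.96, 1.76 and 1.91 in knockout hearts. The genotypes overlapped at both ages, and the difference between the genotype effects, -0.40 (SE 0.199), did not pass the test (limma adjusted p = 0.934). A second Trim25 probe gave -0.16 for it.

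Ifit2 was the gene of the list nearest to a call by genotype. IFIT proteins restrict the translation of viral RNA. The levels of Ifit2 were -1.38, -1.50 and -1.41 in dflox and -1.18, -1.05 and -1.09 in knockout hearts at 1 month. At 2 months they were -1.40, -1.48 and -1.68 in dflox and -1.18, -1.36 and -0.83 in knockout hearts. Every knockout heart lay above every dflox heart, at each age and over both ages together. Ifit2 was the 1 member without overlap over both ages, where 1.59% of all genes were higher without overlap. The log2 difference was 0.32 at 1 month (SE 0.138, limma adjusted p = 0.493), 0.40 at 2 months (adjusted p = 0.211) and 0.36 averaged (SE 0.0974, adjusted p = 0.0739). A second Ifit2 probe gave 0.44 and 0.52. Without knockout 2-month replicate 2 the averaged difference was 0.42 (adjusted p = 0.0405), and with the slide as a fixed block it was 0.36 (adjusted p = 0.0427). In the other 21 of 23 alternatives, place on the slide as a term among them, Ifit2 was not called. Ifit1 and Ifit3 differed by -0.08 to 0.12 (adjusted p = 1.0 at 1 month for both). The Ifit2 probe is at chr19:34277058-34277117 (mm7).

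The 2'-5' oligoadenylate synthetases make the messenger that activates RNase L, and Oasl1 and Oasl2 are related proteins. Oasl2 levels were 0.75, 0.90 and 0.91 in dflox and 0.78, 0.70 and 0.71 in knockout hearts at 1 month, and 0.51, 0.54 and 0.81 against 0.21, 0.37 and 0.44 at 2 months. The genotypes overlapped at 1 month, and at 2 months all knockout hearts were below all dflox hearts. The difference at 2 months was -0.28 (SE 0.111, limma adjusted p = 0.263). Oas2 was likewise lower without overlap at 2 months, by -0.39 (adjusted p = 0.321). Oas3 was well above background on 3, 1, 2 and 2 of 3 arrays in dflox and knockout at 1 month and dflox and knockout at 2 months. Its levels were -5.08, -4.92 and -5.08, then -4.33, -6.31 and -5.33, then -6.86, -4.55 and -4.92, then -5.60, -4.60 and -5.25 in those groups. The 4 groups of Oas3 overlapped, and a difference of under 2-fold was not detectable on this probe.

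The other antiviral effectors numbered 11 measured genes. Eif2ak2 (PKR) halts translation on double-stranded RNA. Its levels were -0.71, -0.75 and -0.93 in dflox and -0.66, -0.66 and -0.62 in knockout hearts at 1 month, and -1.03, -0.88 and -0.92 against -0.61, -0.80 and -0.77 at 2 months. At each age all knockout hearts were above all dflox hearts. The differences of Eif2ak2 were 0.15 at 1 month and 0.22 at 2 months, and 0.18 averaged (SE 0.0693, limma adjusted p = 0.193). Isg20, a 3′ exonuclease, had 0.79, 1.10 and 1.45 in dflox and 1.28, 0.42 and 1.55 in knockout hearts at 1 month. At 2 months Isg20 had 0.67, 1.24 and 0.86 in dflox and 1.91, 1.45 and 1.34 in knockout hearts. The groups overlapped at 1 month and not at 2 months, where the difference was 0.64 (SE 0.297, adjusted p = 0.33).

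Rtp4, a chaperone that limits flavivirus replication, had levels of 2.67, 2.93 and 2.67 in dflox and 2.68, 2.70 and 2.59 in knockout hearts at 1 month, and 2.29, 2.65 and 2.87 against 2.37, 2.30 and 1.87 at 2 months. The genotypes overlapped at both ages, and the 2-month difference of -0.42 (SE 0.173) did not pass the test (limma adjusted p = 0.278). Ifi35, a leucine zipper protein, had 1.39, 1.57 and 1.29 in dflox and 1.26, 1.21 and 1.28 in knockout hearts at 1 month, and 1.34, 1.56 and 1.48 against 1.40, 1.23 and 1.26 at 2 months. The knockout hearts were all lower at 1 month only, with a difference of -0.16 at each age. Parp14, an ADP-ribosyltransferase, had 2.07, 2.25 and 1.98 in dflox and 2.46, 2.36 and 2.06 in knockout hearts at 1 month, and 2.22, 2.39 and 2.50 against 2.38, 2.42 and 2.12 at 2 months, with overlap at both ages. Mx1, the gene of a dynamin-like GTPase, was well above background on 1, 3, 2 and 3 of 3 arrays in the same order of groups. Its levels were -5.78, -6.09 and -5.75, then -5.55, -5.02 and -5.35, then -5.68, -3.57 and -7.12, then -5.83, -4.49 and -4.29. Mx1 had the widest spread between hearts of 1 group, a range of 3.55 in dflox hearts at 2 months.

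Guanylate-binding proteins and immunity-related GTPases attack the vacuoles of intracellular pathogens. Iigp1, an immunity-related GTPase on chromosome 18, had levels of 3.79, 3.88 and 3.61 in dflox and 3.41, 3.11 and 3.54 in knockout hearts at 1 month, and 3.46, 3.38 and 3.87 against 3.60, 3.22 and 2.91 at 2 months. The knockout hearts were all lower at 1 month and overlapped with dflox at 2 months. The differences of Iigp1 were -0.41 and -0.33, and -0.37 averaged (SE 0.14, limma adjusted p = 0.197). Gbp3, whose promoter holds the ISRE core shown above, had 1.30, 1.45 and 0.99 in dflox and 1.24, 1.22 and 1.20 in knockout hearts at 1 month, and 1.11, 1.13 and 1.46 against 0.86, 1.08 and 0.73 at 2 months. Only at 2 months were all its knockout hearts lower, by -0.34 (SE 0.148, adjusted p = 0.298). The Gbp3 probe was labelled Gbp4 and was matched through its RefSeq transcript. Gbp2, Igtp, Irgm1 and Ifi47 differed by -0.15 to 0.35.

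Tap1 pumps peptides into the endoplasmic reticulum for MHC class I, and Psmb8 and Psmb9 are immunoproteasome subunits. Tap1 levels were -1.70, -1.39 and -1.49 in dflox and -0.73, -1.37 and -1.29 in knockout hearts at 1 month, and -1.53, -1.54 and -0.87 against -1.24, -0.95 and -0.72 at 2 months. The knockout hearts were all higher at 1 month and overlapped with dflox at 2 months, with an averaged difference of 0.37 (SE 0.162, limma adjusted p = 0.271). Psmb8 differed by 0.18 and 0.17 and Psmb9 by -0.01 and 0.12. A second Psmb8 probe gave -0.03 and 0.04. Cxcl10, a chemokine that draws activated T cells, differed by 0.19 at each age (adjusted p = 0.991 and 0.704).

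In all, 6 of 38 genes at 1 month had every knockout heart above every dflox heart (9.04% of all genes did) and 3 every knockout heart below (9.84%). The 6 were Ifit2, Mx1, Eif2ak2, Irgm1, Psmb8 and Tap1, and the 3 were Irf1, Ifi35 and Iigp1, each on its brightest probe. At 1 month the second Psmb8 probe gave -0.03, while that of Irf1 gave -0.40 and that of Irgm1 0.29. Mx1 passed the filter on dim signals through the knockout hearts alone, where it was higher, so its place in this count was set by the filter. Among the 36 genes well above background on all 12 arrays, 5 were higher without overlap at 1 month (1498 of all 15969 such genes). In the genotype comparisons the median of those 36 was 0.04 at 1 month, beside 0 over all such genes, and 0.03 at 2 months, beside -0.09. At 2 months 4 were higher without overlap (6.55% of all genes), namely Ifit2, Isg20, Eif2ak2 and Cxcl10. The 3 lower without overlap (11.2% of all genes) were Oas2, Oasl2 and Gbp3. Of 13 macrophage markers well above background on all arrays, 12 lay above 0 at each age, with a median difference of 0.20 at 1 month and 0.22 at 2 months. Of all 15969 such genes, 7918 lay above 0 at 1 month and 5990 at 2 months. Cardiomyocyte markers lay below 0 for 6 of 7 at each age. Endothelial markers did for 8 of 9 at 1 month and 6 of 9 at 2 months, and fibroblast markers for 7 of 7 and 5 of 7. The macrophage receptor gene Fcgr1 differed by 0.35 averaged over the ages (limma adjusted p = 0.0433), a call lost in 10 of 12 fits that left out 1 heart, all but those without dflox or knockout 2-month replicate 3 (0.31 to 0.37, adjusted p = 0.0639 to 0.111), and in 7 of 11 others, with adjusted p from 0.0513 to 0.381. Ryr2, the calcium release channel of cardiomyocytes, fell by 0.38 averaged over the ages (adjusted p = 0.0126), and the thymocyte marker Arpp21 rose by 0.58 (adjusted p = 0.049). The Ryr2 call was lost without knockout 2-month replicate 1 (-0.54, adjusted p = 0.11) or with place on the slide as a term (-0.45, adjusted p = 0.0862). The Arpp21 call was lost in 10 of those 12 fits, all but those without dflox 1-month replicate 3 or knockout 2-month replicate 3 (0.49 to 0.65, adjusted p = 0.0508 to 0.118). Under normexp background correction Arpp21 differed by 0.20 (adjusted p = 0.378), with place on the slide as a term by 0.47 (adjusted p = 0.414), and 4 further settings also ended its call (0.58 to 0.60, adjusted p = 0.0544 to 0.108). T and NK cell markers well above background on all arrays lay above 0 for 6 of 8 at 1 month and 5 of 8 at 2 months. In bulk RNA, more or fewer cells of a type and more or less RNA per cell cannot be told apart, and the part of these cells in the genotype values was not tested.

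The rest of the pathway was read from lists of related genes. All 6 interferon receptor genes, 12 kinases, factors and inhibitors of interferon signalling, and 16 of 17 listed genes of nucleic acid sensing were tested, and 0 of them were called at either age, averaged or by age. Averaged over the ages, Ifnar1 differed by -0.05, Ifnar2 by 0.06, Ifngr1 by -0.03 (1 dflox 2-month heart without a usable spot), Irf3 by -0.13, Irf8 by 0.21, Socs1 (a feedback inhibitor of Jak kinases) by -0.12 and the sensor gene Zbp1 by 0.03. Their adjusted p values ran upward from 0.289, that of Irf8. Among 42 other interferon-induced genes, the class I light chain gene B2m differed by 0.28 (limma adjusted p = 0.223), Ifitm3 by -0.06 and Ifi27l2a by -0.10. The leukocyte gene Ptprc (CD45) differed by 0.10 (adjusted p = 0.628). Of 10 listed interferon genes 2 were tested, Ifna1 and Ifng. The Ifng probe exceeded background on 0 of 3 arrays of dflox hearts at each age and on 2 and 3 of 3 arrays of knockout hearts at 1 and 2 months. Ifng passed the filter through the 2-month knockout hearts alone, so a difference there was set by the filter, and its averaged difference did not pass the test (adjusted p = 0.0919).

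Parp9 was the 1 gene among these related lists that was called by genotype at a single age. It was 1 of 42 other interferon-induced genes, a share near the 2.31% of all genes called at 2 months. It encodes an ADP-ribosyltransferase that works with the ubiquitin ligase Dtx3l in the interferon response. Its levels were -0.12, -0.04 and -0.06 in dflox and 0.38, 0.35 and 0.30 in knockout hearts at 1 month, and -0.04, -0.04 and -0.47 against 0.40, 0.52 and 0.67 at 2 months. Every knockout heart lay above every dflox heart at each age. Parp9 rose by 0.71 at 2 months (SE 0.129, limma adjusted p = 0.0184) and by 0.56 averaged over the ages (SE 0.0912, adjusted p = 0.00592), while the 0.42 at 1 month did not pass the test (adjusted p = 0.244). The 2-month call was lost without knockout 2-month replicate 2 (0.72, adjusted p = 0.0556) or replicate 3 (0.64, 0.0584). It was also lost without a filter on dim probes (adjusted p = 0.0535), with the slide as a fixed block (0.0522) and with only the 2-month groups fitted (0.221), and the averaged call was lost with place on the slide as a term (0.56, 0.106). Its probe is at chr16:35646460-35646519 and that of Parp14 at chr16:35507119-35507178 (mm7), and Parp14 differed by 0.19 at 1 month and -0.07 at 2 months. The glucocorticoid receptor targets Klf9, a transcription factor gene, and Fkbp5, a receptor co-chaperone gene, differed by -0.48 (adjusted p = 0.0358) and -0.56 (adjusted p = 0.142) averaged over the ages, and the Klf9 call was lost in 9 of 12 fits that left out 1 heart (-0.41 to -0.51, adjusted p = 0.0508 to 0.0992). It was kept without dflox 1-month replicate 1, dflox 2-month replicate 2 or knockout 2-month replicate 1. The Klf9 call was lost in 5 of 11 other settings too (-0.38 to -0.48, adjusted p = 0.0711 to 0.376).

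**Figure D2:**
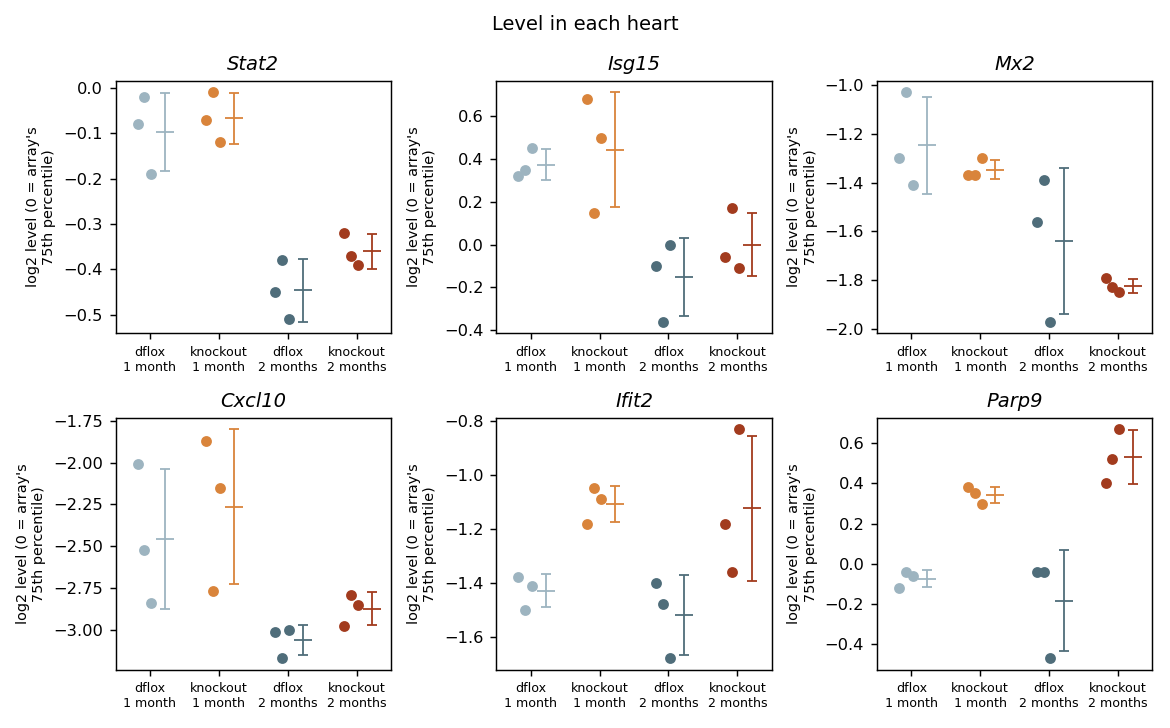
Log2 level in each of the 12 hearts (points) with the group mean and SD (bars), n = 3 per group, for Stat2, Isg15, Mx2, Cxcl10, Ifit2 and Parp9. The means of Stat2, Isg15, Mx2 and Cxcl10 are lower at 2 months than at 1 month in both genotypes, and Ifit2 and Parp9 are higher in every knockout heart than in any dflox heart of the same age.

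Between the ages most of the 38 genes differed in 1 direction by small amounts, and none was called within a genotype. In dflox hearts 25 of 38 genes were lower at 2 than at 1 month, where 42.3% of all genes were, and the median was -0.17 beside 0.05 over all genes. In knockout hearts 25 of 38 were lower, where 54.2% of all genes were, and the median was -0.23 beside -0.02. Oas3, counted as lower in dflox hearts, passed the filter through the 1-month dflox hearts alone. Among the 36 genes well above background on all arrays, 24 were lower in dflox hearts (6961 of all 15969 such genes). In knockout hearts 25 of those 36 were lower (8923 of 15969). Limma called 0 of 38 in dflox (0.553% of all genes) and 0 of 38 in knockout hearts (0.378%). At an unadjusted p under 0.05, 7 genes were lower (6% of all genes) and 0 higher (8.14%) in dflox hearts. In knockout hearts 11 were lower (7.61% of all genes) and 1 higher (4.83%). In dflox 6 genes were lower without overlap (8.68% of all genes) and in knockout hearts 13 (10.8%), and 0 were higher without overlap in dflox (11.6% of all genes) or knockout hearts (7.2%). The 6 were Stat2, Irf9, Dhx58, Oasl1, Isg15 and Cxcl10. The 13 were Stat2, Ddx58, Dhx58, Trim25, Ifit1, Oas2, Oasl2, Mx2, Bst2, Rtp4, Ifi44, Gbp3 and Cxcl10. Ddx58 is counted on its brightest probe (-0.39), and its other passing probes gave -0.16 and 0.09 in knockout hearts. No test compared the list with other genes. Age and slide are largely confounded in dflox hearts. On slide 1, which held a heart of each group, the age median of the list lay near that of all genes. On slides 2 and 3, where age mixes with genotype, it lay below that of all genes. The closing section gives these values.

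Averaged over the genotypes, a comparison added after the data had been seen, 26 of 38 genes lay below 0 (45.5% of all genes did) and 3 of 38 were called, where 4.6% of all genes were. All 3 were lower, as were 2.61% of all genes. Of the 36 genes well above background on all arrays 25 lay below 0 (7583 of all 15969 such genes did), with a median of -0.18 beside 0.01. The 3 were Stat2, Isg15 and Mx2. The averaged comparison uses the same hearts as those within each genotype.

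Stat2, the signal transducer of type I interferons, had levels of -0.08, -0.02 and -0.19 in dflox and -0.07, -0.01 and -0.12 in knockout hearts at 1 month. At 2 months Stat2 levels were -0.45, -0.38 and -0.51 in dflox and -0.32, -0.37 and -0.39 in knockout hearts. Every 2-month heart lay below every 1-month heart of either genotype, as for 2% of all genes, and Stat2 was the 1 member of which this held, while 0 members were higher without overlap (1.14% of all genes). The difference was -0.35 in dflox (SE 0.0883, limma adjusted p = 0.102), -0.30 in knockout hearts (adjusted p = 0.186) and -0.33 averaged (SE 0.0625, adjusted p = 0.0193). Within slides 1, 2 and 3 it was -0.38, -0.21 and -0.35, with a single 2-month heart on slide 2 and a single 1-month heart on slide 3. The averaged call was lost without dflox 1-month replicate 1 (-0.32, adjusted p = 0.0613) or knockout 1-month replicate 1 (-0.33, 0.051). It was also lost under normexp background correction (-0.26, 0.24), without a filter on dim probes (0.0656) and with the slide as a fixed block (0.0624). The Stat2 probe is at chr10:127793622-127793681 (mm7).

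Isg15 encodes the ubiquitin-like protein that is attached to host and viral proteins. Its levels were 0.32, 0.35 and 0.45 in dflox and 0.68, 0.15 and 0.50 in knockout hearts at 1 month. At 2 months Isg15 levels were -0.10, -0.36 and 0.00 in dflox and -0.06, 0.17 and -0.11 in knockout hearts. The 2 ages did not overlap in dflox hearts, and in knockout hearts 1-month replicate 2 lay below 2-month replicate 2. Isg15 fell by 0.48 averaged over the genotypes (SE 0.107, limma adjusted p = 0.033), with -0.53 in dflox and -0.44 in knockout hearts. The call was lost in 9 of 12 fits that left out 1 heart, with adjusted p from 0.0579 to 0.09, and kept without knockout 1-month replicate 2, knockout 2-month replicate 2 or dflox 2-month replicate 3. It was also lost without a filter on dim probes (adjusted p = 0.0808), with the slide as a fixed block (0.0505) and with the replicate block (0.0568). The file headers place the Isg15 probe at chr17:44534906-44534965 (mm7), while the RefSeq promoter of Isg15 shown above lies on chromosome 4, and the probe's target was not checked here.

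Mx2 encodes the second dynamin-like GTPase of the list. The function of the Mx proteins in these C57BL/6 mice was not examined. Mx2 levels were -1.30, -1.03 and -1.41 in dflox and -1.37, -1.37 and -1.30 in knockout hearts at 1 month. At 2 months they were -1.56, -1.39 and -1.97 in dflox against -1.79, -1.83 and -1.85 in knockout hearts. The ages overlapped by 1 heart in dflox and did not overlap in knockout hearts. Mx2 fell by 0.43 averaged over the genotypes (SE 0.107, limma adjusted p = 0.048). The call was lost in 11 of 12 fits that left out 1 heart (adjusted p from 0.0585 to 0.119) and kept without dflox 2-month replicate 2 (-0.50, 0.0394). Mx2 lost its call in 6 of 11 other settings, with the smallest difference, -0.29, under normexp background correction (adjusted p = 0.167). The Mx2 probe is at chr16:97944478-97944537 (mm7).

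Of the 38 genes, Cxcl10 had the largest difference with age averaged over the genotypes, without a call. Its levels were -2.01, -2.52 and -2.84 in dflox and -1.87, -2.77 and -2.15 in knockout hearts at 1 month, and -3.01, -3.17 and -3.00 against -2.98, -2.79 and -2.85 at 2 months. In each genotype all 2-month hearts lay below all 1-month hearts. The difference was -0.60 in dflox, -0.61 in knockout hearts and -0.61 averaged (SE 0.171, limma adjusted p = 0.0756). Cxcl10 was called without knockout 1-month replicate 2 (-0.73, adjusted p = 0.0285) and under quantile normalization (-0.67, 0.049).

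Irf9, the DNA-binding partner of Stat2, had 0.35, 0.56 and 0.62 in dflox and 0.83, 0.69 and 0.52 in knockout hearts at 1 month, and 0.34, 0.11 and -0.29 against 0.29, 0.24 and 0.58 at 2 months. The ages did not overlap in dflox, by a margin of 0.01, and overlapped in knockout hearts, and the averaged difference of -0.38 (SE 0.121) did not pass the test (limma adjusted p = 0.109). Ifi44, a microtubule-associated protein of the antiviral response, had -1.15, -0.71 and -0.94 in dflox and -0.84, -1.10 and -1.02 in knockout hearts at 1 month, and -1.18, -1.12 and -1.52 against -1.65, -1.20 and -1.55 at 2 months. Its ages did not overlap in knockout hearts, and the averaged difference was -0.41 (SE 0.118, adjusted p = 0.0837). Second probes gave averaged differences of -0.77 for Ifi44 and -0.15 for Irf9. Oasl2 differed by -0.31 averaged (SE 0.0785, adjusted p = 0.0532), with -0.23 in dflox and -0.39 in knockout hearts.

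By role, the genes lay on different sides of 0 with age. Averaged over the genotypes, the 4 RNA sensors, the 3 IFIT genes and the 4 oligoadenylate synthetase genes other than Oas3 all lay below 0, with medians of -0.24, -0.20 and -0.28. Oas3 passed the filter through the 1-month dflox hearts alone, the group of its highest mean, and was left out of that count. Of 5 genes of signal transduction and transcription 4 lay below 0 (median -0.33), the exception being Irf1 at 0.05. Of 10 other antiviral effectors, Mx1 left out, 7 lay below 0 (median -0.23). In contrast, 4 of 6 GTPase genes and 3 of 3 antigen processing genes lay above 0, with medians of 0.06 and 0.18. Psmb9 was the highest of the latter at 0.25 (SE 0.092, limma adjusted p = 0.161). These directions are counts of differences, of which 3 passed the test, and no test compared the roles with each other.

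**Figure D3:**
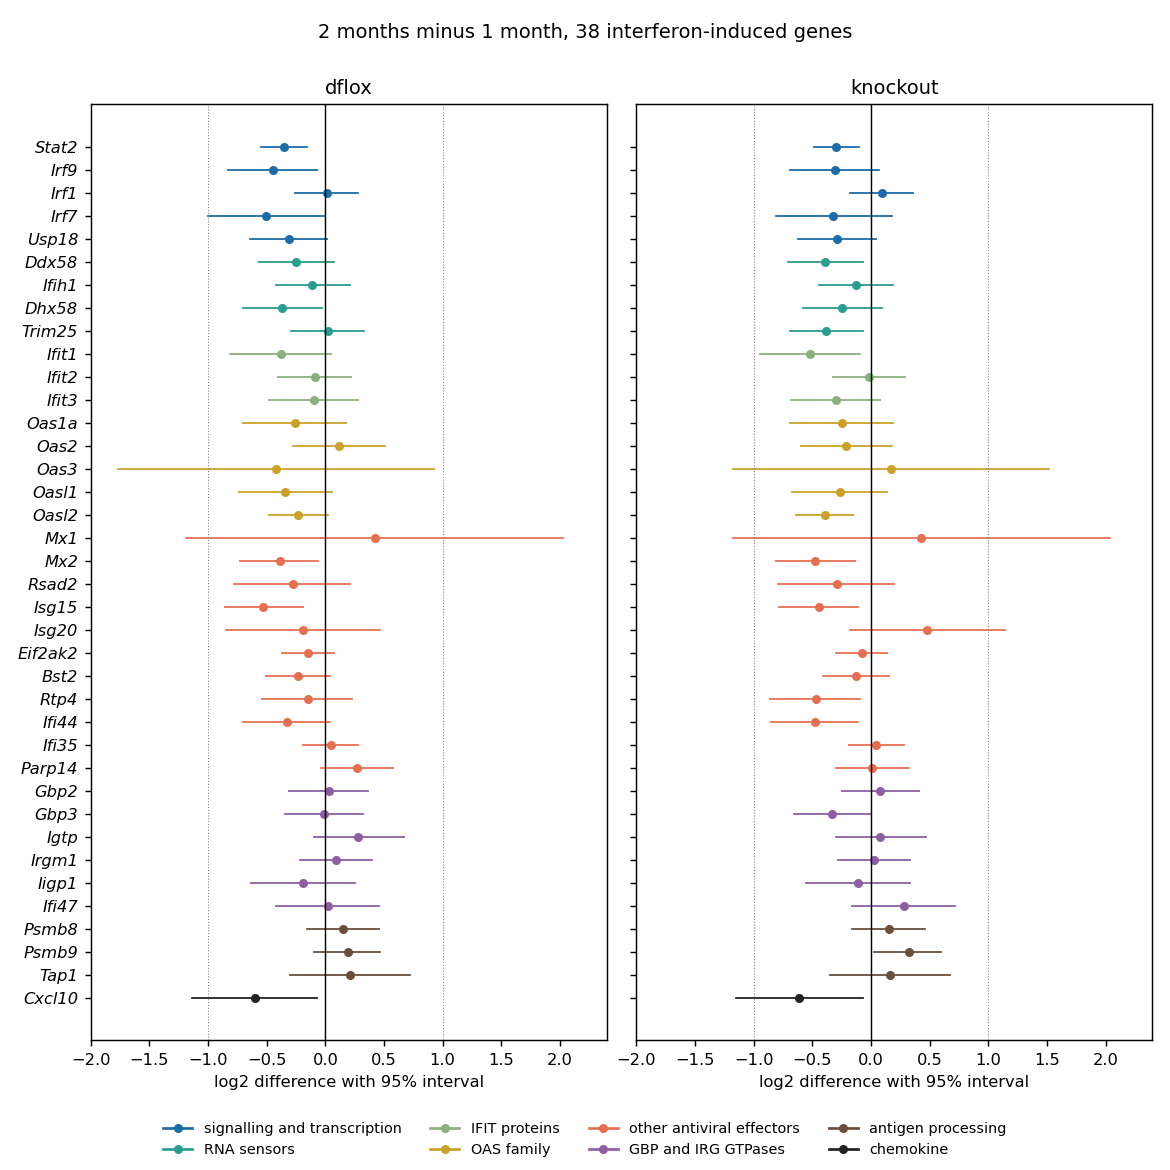
Log2 difference of 2 months minus 1 month for each of the 38 genes in dflox (left) and knockout hearts (right), n = 3 hearts per group. Points are differences and lines 95% intervals from limma, colours give the role and dotted lines mark a 2-fold difference. In each genotype 25 of 38 points lie below 0, while the 3 antigen processing genes lie above it in both. The dflox count includes Oas3, which passed the filter through the 1-month dflox hearts alone.

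Each heart was also described by the mean deviation of the genes from their mean over the 12 hearts. For the 38 genes together it was -0.05, 0.14 and 0.08 in dflox and 0.17, 0.01 and 0.09 in knockout hearts at 1 month. At 2 months it was -0.13, -0.04 and -0.11 in dflox and -0.12, -0.05 and 0.02 in knockout hearts. In each genotype 1 heart of 2 months lay above the lowest heart of 1 month, and the group means were 0.06, 0.09, -0.09 and -0.05 in that order. For the 4 RNA sensors the 1-month hearts ran from 0.01 to 0.23 and the 2-month hearts from -0.18 to -0.01, without overlap. In every other role the ages overlapped. These means take each gene's brightest probe. For Ddx58 that probe gave an age difference of -0.32 averaged over the genotypes, and its other passing probes gave -0.06 and -0.13. For the 3 antigen processing genes the group means were -0.19 in dflox and 0 in knockout hearts at 1 month and -0.01 and 0.20 at 2 months.

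**Figure D4:**
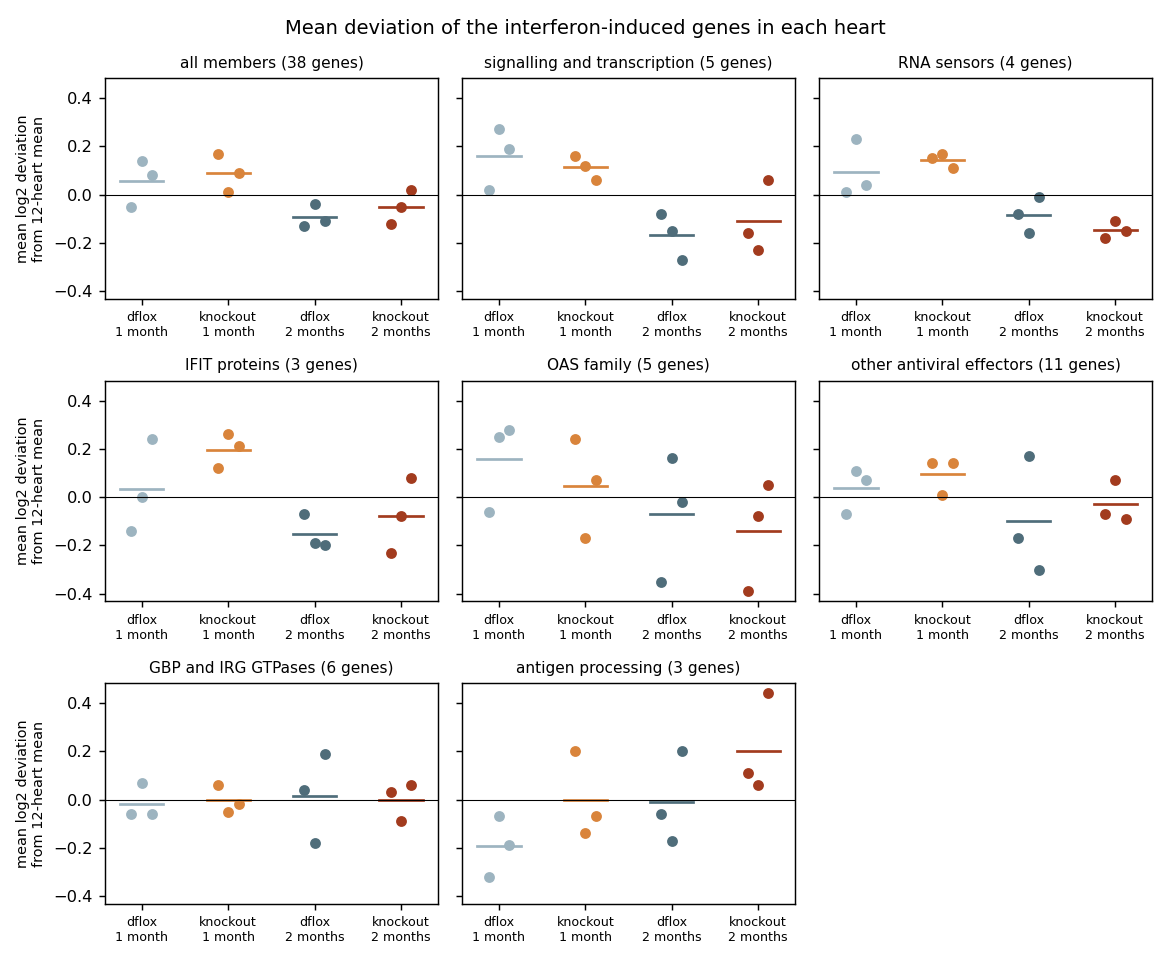
Mean log2 deviation of the genes of each role from their 12-heart mean, in each heart (points) with the group mean (line), n = 3 per group; the chemokine Cxcl10 is a single gene and is left out of the role panels. RNA sensors, each gene on its brightest probe, lie above 0 in all 1-month hearts and below 0 in all 2-month hearts. The group mean of antigen processing genes is highest in knockout hearts at 2 months (hearts at 0.11, 0.06 and 0.44). Those hearts overlap with the 1-month knockout and the 2-month dflox hearts, which each reach 0.20.

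Among related interferon-induced genes, the age comparison called genes in the other direction. Of 42 tested genes outside the 38, 18 lay above 0 and 24 below it (45.5% of all genes did) averaged over the genotypes. Of the 42, 3 were called, all higher. Over all genes 4.6% were called in either direction, which includes 2.61% called lower. Cd274, the gene of the checkpoint ligand PD-L1 and a target of interferon gamma, had -1.51, -1.37 and -1.39 in dflox and -1.54, -1.08 and -1.30 in knockout hearts at 1 month, and -0.75, -0.94 and -0.44 against -0.72, -0.59 and -0.56 at 2 months. Every 2-month heart was above every 1-month heart. Cd274 rose by 0.70 averaged (SE 0.106, limma adjusted p = 0.00725) and kept its call in all 23 alternative fits.

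Gbp6, a guanylate-binding protein, had -2.04, -1.06 and -1.18 in dflox and -0.87, -0.75 and -1.10 in knockout hearts at 1 month, and -0.14, -0.39 and -0.59 against -0.43, -0.25 and 0.75 at 2 months. Its ages did not overlap, and Gbp6 rose by 0.99 (SE 0.23, limma adjusted p = 0.0392). The call was lost in 9 of 12 fits that left out 1 heart, with adjusted p from 0.0581 to 0.103, and in 4 of 11 other settings, with the slide as a fixed block (0.0741), the replicate block (0.0643), an airway marker term (0.055) or no filter on dim probes (0.0866). Tgtp1, whose GAS window is shown above beside that of Igtp, had 0.38, 1.01 and 0.59 in dflox and 1.03, 0.75 and 0.32 in knockout hearts at 1 month, and 1.31, 0.91 and 1.47 against 1.84, 1.45 and 1.89 at 2 months. The ages overlapped by 1 heart in dflox and did not overlap in knockout hearts. Tgtp1 rose by 0.80 (SE 0.164, adjusted p = 0.0259) on its brighter probe, and the other probe gave 0.61. Its call was lost in 7 of 12 fits that left out 1 heart (adjusted p from 0.0506 to 0.0738). It was also lost with the mean of its probes (0.70, adjusted p = 0.0692), the slide as a fixed block (0.0683), the replicate block (0.0561) or no filter on dim probes (0.0623). B2m differed by 0.42 with age (adjusted p = 0.0614) and Irf3 by -0.27 (adjusted p = 0.0879).

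**Figure D5:**
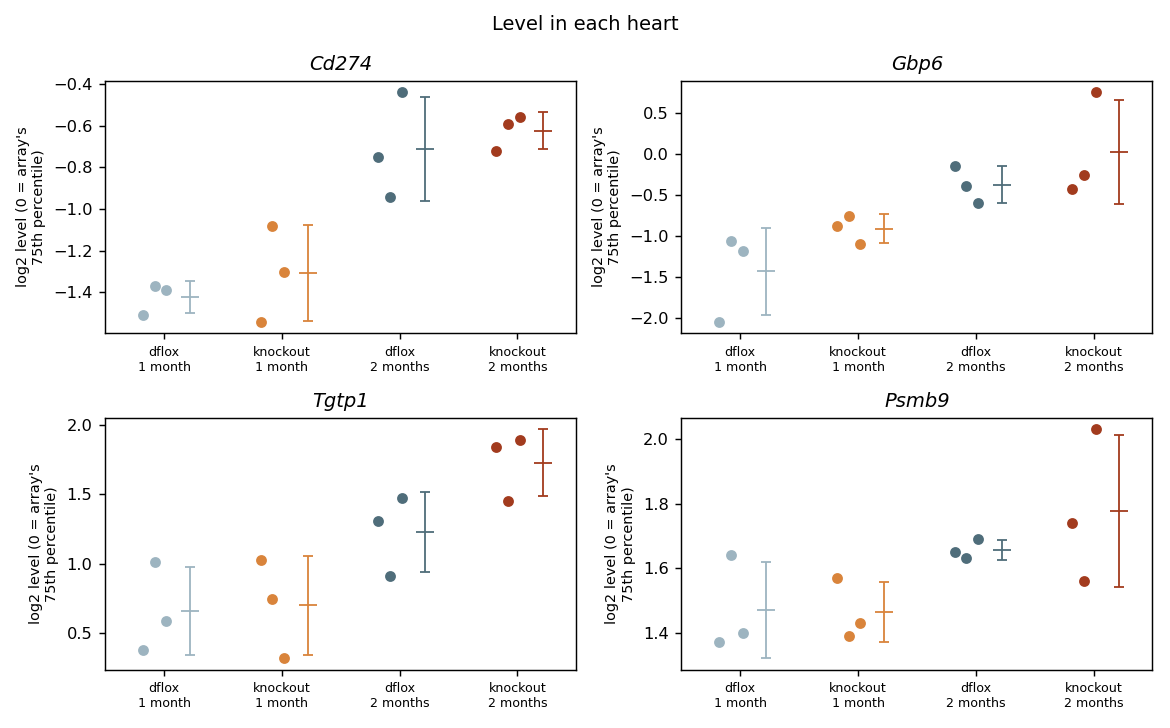
Log2 level in each heart (points) with the group mean and SD (bars), n = 3 per group, for Cd274, Gbp6, Tgtp1 and the immunoproteasome gene Psmb9. Cd274 and Gbp6 are higher in every 2-month heart than in any 1-month heart, while Psmb9 did not pass the test.

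Markers of several cell types differed between the ages as well. Averaged over the genotypes and over markers well above background on all arrays, 11 of 13 macrophage markers lay below 0 with age (median -0.16), 7 of 7 fibroblast markers lay below 0 (median -0.64), and the matrix genes Col1a1, Col1a2, Col3a1 and Postn fell by 1.15, 0.70, 1.03 and 0.64 (limma adjusted p = 0.00127, 0.00334, 0.00896 and 0.0232). Of all 15969 genes well above background on all arrays, 7583 lay below 0 and 8386 above it. T and NK cell markers lay above 0 for 8 of 8 (median 0.30), where Cd2 rose by 0.90 (adjusted p = 0.0288), and B cell markers for 4 of 4 (median 0.75), where Ighm rose by 0.60 (adjusted p = 0.0215). The Cd2 call was lost in 8 of 12 fits that left out 1 heart (0.79 to 0.91, adjusted p = 0.0543 to 0.0788), and kept without replicate 1 of the 1-month knockout hearts, replicate 1 of the 2-month dflox hearts, or replicate 1 or 3 of the 2-month knockout hearts. Under normexp background correction Cd2 differed by 0.34 (adjusted p = 0.199), and its call was also lost with the slide as a fixed block (0.70, 0.0719), the replicate block (0.0617) or no filter on dim probes (0.0666). The Ighm call was lost without replicate 1 of the 1-month dflox hearts (0.56, adjusted p = 0.065) or of the 1-month knockout hearts (0.57, adjusted p = 0.056), and in 3 of 11 other settings (0.57 to 0.71, adjusted p = 0.0567 to 0.177). The Postn call was lost without replicate 1 or 3 of the 1-month knockout hearts (-0.63 and -0.61, adjusted p = 0.0582 and 0.0675) or replicate 2 of the 2-month dflox hearts (-0.58, adjusted p = 0.0524), without a filter on dim probes (0.0588) or with the slide as a fixed block (0.0571). The mean level of the 11 tested T and NK cell markers ran from -4.36 to -3.61 over the 1-month hearts and from -3.91 to -2.88 over the 2-month hearts. The part of these cell types in the age differences of the interferon-induced genes was not tested.

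The 38 genes were measured about as closely as other genes. The median SD within groups was 0.181, beside 0.216 over all genes, and the median SE of a difference of 3 against 3 hearts was 0.151, beside 0.173. For 12 genes more than 1 probe passed, and their probes differed in sign for 3 genes at each age in the genotype comparison and for 4 in dflox and 2 in knockout hearts in the age comparison. Parp14, whose probes gave -0.31 and 0.14 with age averaged over the genotypes, was the 1 gene of the 12 with opposite signs there. The probes that stand for Irf9, Irgm1, Dhx58 and Gbp3 were labelled Isgf3g, Irgm, D11Lgp2e and Gbp4 by the maker and were matched through their RefSeq transcripts.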

How the data were processed

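Whole-heart RNA was labelled with Cy3 and hybridised to Agilent arrays, 1 colour, per the labels. The deposited scanner files were made by the authors with Agilent Feature Extraction (9.5 per the submitters' processing notes, 9.5.3.1 per the file headers) and give each spot's processed signal, which is a linear intensity with the background already subtracted. The deposited series matrix holds the same values (45018 rows, 100% equal). Here log2 intensities were taken relative to each array's 75th percentile, control and outlier spots were left out, and spots of a probe were averaged. A probe was kept if all 3 arrays of some group had it well above background (26979 were), and the brightest probe stood for a gene. With limma 3.58.1 under R 4.3.3 (and version 1.17.8 of data.table), 1 mean per group was fitted over the 12 arrays, and the fit was tested on simulated data. Two-sided p values were Benjamini-Hochberg adjusted over 18258 genes, and a gene was called under 0.05. Background correction, normalization, filters, probe choice, slide, place, an airway marker term, the replicate number, the groups fitted and each heart were varied. Counts over genes well above background on all 12 arrays were added after the data had been seen.

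Heart values are given for the 5 genes of smallest p in each of 6 comparisons and the 3 of widest spread. The members and lists were chosen with earlier results of these data known. Probe coordinates are mm7, per the file headers; exons and UTRs are not given. The number of arrays limits the precision.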

Additional observations from a re-analysis of the deposited data

How the results depend on the processing

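No interferon-induced gene was called by genotype at 1 or 2 months, for the difference between the genotype effects or by age within a genotype under any of the 23 or 24 alternatives run for each. For the genotype comparison averaged over the ages, the count was 1 with the slide as a fixed block, and 0 to 1 when 1 heart was left out, the gene being Ifit2. For the added age comparison averaged over the genotypes, the count of 3 became 0 without a filter on dim probes, 0 with the slide as a fixed block and 1 with the replicate block, and ran from 0 to 4 when 1 heart was left out. Stat2 lost its call in 5 of 23 alternatives, Isg15 in 12 and Mx2 in 17, and none reversed. The cause was not tested. The median of the members with age stayed below 0 in all of them, from -0.19 to -0.08 in dflox and from -0.27 to -0.14 in knockout hearts, while the genotype medians ran from -0.05 to 0.11 at 1 month and from -0.04 to 0.10 at 2 months, so they have no settled sign. Within slides 1, 2 and 3 the age median was -0.05, -0.24 and -0.21, beside -0.06, -0.01 and 0.07 over all genes. Slide 1 held 1 heart of each group. Slide 2 held a single 2-month heart and slide 3 a single 1-month heart, both knockout, so their values mix age with genotype. The dflox hearts of 1 month lay on slides 1 and 2 and those of 2 months on slides 1 and 3. Age and slide are thus largely confounded in dflox hearts. Counts over all genes ranged from 9 to 230 at 1 month, 97 to 452 at 2 months, 257 to 973 averaged, 0 to 2 for the difference, 0 to 175 by age in dflox, 0 to 83 in knockout hearts and 318 to 967 averaged. Quantile normalization moved the 2-month median of all genes from -0.10 to -0.02. Deviations of hearts with the same replicate number had correlations from -0.49 to 0.55 over 18 pairs (median -0.01). Over 36 pairs with different numbers they ran from -0.48 to 0.44 (median -0.01). With 3 hearts per group this check cannot exclude a pairing, and the main fit used none. Mx1 and Oas3 were too dim for a difference under 2-fold to be seen.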
